A study of Rattus norvegicus with 18 samples.

Results

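The genes that end the rod photoresponse and reset its calcium were followed in neural retina and in RPE/choroid, the tissue made of the retinal pigment epithelium (RPE) and the vascular layer behind it. They are 10 genes, Sag, Grk1, Rcvrn, Rgs9, Rgs9bp, Pdc, Guca1a, Guca1b, Gucy2f and Slc24a1, picked by name for their known role in shut-off and recovery and found by symbol among 32285 genes of the retina count table and 32552 genes of the RPE/choroid count table. The rule used no measured value, and the genes were chosen with earlier results of these data known.

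The rats were female wild-type Fischer 344 (F344), an inbred strain used to study aging. Young rats were 4 months old. Aged rats were 24 months old and drank water only, and the 8-AG treated aged rats, also 24 months old, had taken 8-aminoguanine (8-AG), an inhibitor of purine nucleoside phosphorylase, in their drinking water from 22 months of age at 5 mg/kg per day for 8 weeks. Each of the 3 groups gave 3 retina and 3 RPE/choroid libraries. The labels name more than one supplier without saying which group came from which, so supplier and age cannot be told apart. Nothing in the labels states that the 3 retina libraries of a group came from separate rats, and in RPE/choroid young libraries 1 and 2 share a label number, marked L and R, as do aged libraries 1 and 2, so the p-values measure the spread between these libraries, which may be partly technical. As RNA type the labels give polyA RNA, except in 8-AG treated retina, where the 3 libraries carry the entry total RNA. The protocol text states poly-A capture for all retina libraries, and poly-A selection enriched for full-length transcripts for RPE/choroid because little RNA was recovered.

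In a rod, light drives the G protein transducin and the phosphodiesterase PDE6, cyclic GMP falls, and the cation channels of the outer segment close. The response ends upstream of transducin through the kinase encoded by Grk1 and through arrestin (Sag), while the RGS9 complex speeds GTP hydrolysis on transducin. Calcium then resets the system: the exchanger NCKX1 (Slc24a1) extrudes calcium through the outer segment membrane, recoverin (Rcvrn) frees the Grk1 kinase when calcium is low, and the guanylate cyclase activating proteins GCAP1 (Guca1a) and GCAP2 (Guca1b) stimulate the retinal guanylate cyclases, of which Gucy2f encodes GC2, to refill cyclic GMP.

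Levels are given as CPM, counts scaled to a common library total, after correction by TMM, a factor that makes the bulk of genes comparable between libraries. The retina libraries held 12283458 to 15644346 counts and the RPE/choroid libraries 28573828 to 48203050. In retina the lens markers, 9 crystallin and fiber cell genes, summed to 2800 and 6210 CPM in young libraries 1 and 2 and to 1745 CPM in 8-AG treated library 1, against 17.0 to 151 CPM in the other 6. Markers of microglia and macrophages summed to 38.02 to 39.2 CPM in young retina, 121 to 207 CPM in aged retina and 132 to 140 CPM in 8-AG treated retina. The rod identity markers (10 of 11 genes were found) summed to 26422.5 to 28544 CPM in young retina, 15734 to 17141 CPM in aged retina and 16413 to 21471 CPM in 8-AG treated retina. RPE markers summed to 33.8 to 169 CPM in young, 94.6 to 231 CPM in aged and 187 to 389.8 CPM in 8-AG treated retina, and the RPE/choroid libraries carried them at 6483 to 31251 CPM. Cone markers went from 318 to 342 CPM in young to 270.3 to 280.3 CPM in aged and 243.1 to 323 CPM in 8-AG treated retina (4 of 9 called lower with age, where 7.26% of all genes were), and Mueller glia markers from 5374 to 5651 CPM to 4573 to 4927 CPM and 4664 to 4944 CPM (3 of 7 called lower with age and 1 higher). Bipolar cell markers summed to 1452 to 1582 CPM in young, 1134 to 1545 CPM in aged and 999 to 1284 CPM in 8-AG treated retina, with 1 of 8 called lower and 1 higher with age. In 8-AG treated against young retina 1 cone, 3 Mueller glia and 3 bipolar markers were called lower and 1 of each higher, where 7.1% of all genes were called lower. The part of these mixtures in the results on the 10 genes was not tested, and in tissue made of many cells, fewer rods and less RNA per rod cannot be told apart.

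Most shut-off and recovery genes were lower in aged than in young retina. Of the 10 genes, 8 were lower in aged than in young retina at an adjusted p under 0.05 (edgeR's quasi-likelihood F test, Benjamini-Hochberg over all genes tested), where 14.5% of the 14588 genes tested were called and 7.26% were called lower. The same 8 genes showed no overlap between the groups, which held in the lower direction for 17.2% of all genes. By the study's own rule, which asks for more than 1.5-fold and P below 0.05, read here as P before adjustment, 6 of the 10 were lower, against 2.39% of all genes. The median log2 fold change was -0.60 over the 10 genes and 0.00 over all genes tested. The changes ran from -0.95 for Slc24a1 to -0.08 for Sag, and 2 of the 10, Sag and Guca1a, did not pass. Leaving out young library 2, young library 3 or aged library 1 ended the calls of Grk1 (-0.42, -0.39 and -0.43, adjusted p = 0.0669, 0.0581 and 0.0539) and Gucy2f (-0.43, -0.39 and -0.47, adjusted p = 0.105, 0.0916 and 0.0866). Fitting all 3 groups together also ended the call of Grk1 (-0.42, adjusted p = 0.054), and leaving out aged library 3 gave Guca1a an adjusted p of 0.0269 at a log2 fold change of -0.30. With both lens-rich young libraries left out, a check chosen after the data were seen that assumes the single young library left to vary like the aged ones, 5 of the 10 were called beside 4.39% of all genes and the median was -0.60, with Grk1 (-0.50, adjusted p = 0.107), Gucy2f (-0.55, adjusted p = 0.107) and Rgs9bp (-0.64, adjusted p = 0.0672) no longer passing.

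Of the 10 genes, Slc24a1 had the largest decrease. It encodes the sodium, calcium and potassium exchanger of the rod outer segment, and stood at 2233, 2332 and 2309 CPM in the young libraries, at 1244, 1063 and 1255 CPM in the aged libraries and at 1270.0, 1389 and 1492 CPM in the 8-AG treated libraries. Every aged library lay below every young library, and the 8-AG treated libraries lay between the groups. Slc24a1 fell by 0.95 on the log2 scale with age (SE 0.07, adjusted p = 9.91e-05), a level 1.93-fold lower.

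The genes of cyclic GMP synthesis were all below 0 with age, and 2 of the 3 passed. Guca1b, which encodes GCAP2, was measured at 1252, 1154 and 1266 CPM in young retina, at 662, 659 and 729 CPM in aged retina and at 671, 755 and 854 CPM after 8-AG. The young libraries all stood above both aged groups. Guca1b fell by 0.84 with age (SE 0.07, adjusted p = 1.05e-04), or 1.79-fold. Guca1a, which encodes GCAP1, was at 482, 442 and 468 CPM in young retina, at 377, 377 and 447 CPM in aged retina and at 333, 409 and 458 CPM after 8-AG. Aged library 3 reached into the young range, and the log2 fold change of -0.21 (SE 0.08, 95% interval -0.39 to -0.04) did not pass (adjusted p = 0.0978). Gucy2f, the cyclase GC2 itself, was at 191, 217 and 229 CPM in young retina, at 161, 131 and 177 CPM in aged retina and at 138, 148 and 166 CPM after 8-AG. Its groups did not overlap with age, and it fell by 0.44 (SE 0.11, adjusted p = 0.0357).

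Guca1a and Guca1b are neighbouring protein-coding genes on one chromosome in RefSeq's GRCr8 annotation. The ratio of Guca1b to Guca1a, chosen after their values were seen, was 2.60, 2.61 and 2.70 in the young libraries, 1.76, 1.75 and 1.63 in the aged libraries and 2.01, 1.85 and 1.86 in the 8-AG treated libraries. The young libraries were highest, the aged lowest and the 8-AG treated between them. The log2 difference was -0.62 for aged against young, 0.16 for 8-AG treated against aged and -0.47 for 8-AG treated against young, given with no test since the pair was chosen for its difference. These comparisons share libraries, and a ratio shows unequal change without telling which gene moved.

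Genes that act upstream of transducin changed by different amounts. Sag, the rod arrestin that ends transducin activation, was at 5636, 5329.9 and 5979 CPM in young retina, at 4905, 5555 and 5528 CPM in aged retina and at 4353, 5368 and 6068 CPM after 8-AG. All 3 groups overlapped. Its log2 fold change with age was -0.08, with a 95% interval of -0.25 to 0.08 (adjusted p = 0.483), and 0.031 when scaled by library totals alone. Grk1, the kinase whose action lets arrestin bind, was at 517, 558 and 583 CPM in young retina, at 412, 356 and 469 CPM in aged retina and at 389.9, 442 and 540.3 CPM after 8-AG. The young and aged libraries did not overlap, while 8-AG treated library 3 stood within the young range. Grk1 fell by 0.42 with age (SE 0.10, adjusted p = 0.0188). Rcvrn, the calcium sensor that holds the Grk1 kinase back in the dark, was at 1249, 1159 and 1255 CPM in young retina, at 749.8, 818 and 860.5 CPM in aged retina and at 933, 984 and 962 CPM after 8-AG. Each 8-AG treated library lay above every aged library and below every young library. Rcvrn fell by 0.59 with age (SE 0.07, adjusted p = 5.65e-04).

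The transducin shut-off genes Rgs9 and Rgs9bp fell. Rgs9, the GTPase accelerating subunit, was at 574, 607 and 571 CPM in young retina, at 377, 348 and 422 CPM in aged retina and at 344, 388 and 457 CPM after 8-AG. Rgs9bp, the membrane anchor of that complex, was at 32.0, 32.7 and 30.9 CPM in young retina, at 20.3, 16.8 and 22.2 CPM in aged retina and at 21.0, 25.2 and 24.9 CPM after 8-AG. For both genes the young libraries stood above all libraries of the aged groups. With age Rgs9 fell by 0.61 (SE 0.08, adjusted p = 8.32e-04) and Rgs9bp by 0.69 (SE 0.10, adjusted p = 0.00227). Pdc, phosducin, which binds the beta-gamma subunits of transducin, was at 3239, 3096 and 3603 CPM in young retina, at 1984, 1734 and 1946 CPM in aged retina and at 1722, 2554 and 2713 CPM after 8-AG. Its young and aged libraries were far apart, and the 8-AG treated libraries spanned from below the aged range to above it. Pdc fell by 0.81 with age (SE 0.08, adjusted p = 2.25e-04), or 1.75-fold. In RefSeq's GRCr8 annotation Rgs9 and Guca1a each overlap another gene model, LOC102550782 and LOC120094981, and how shared reads were assigned is not given in the sources used here.

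**Figure D1:**
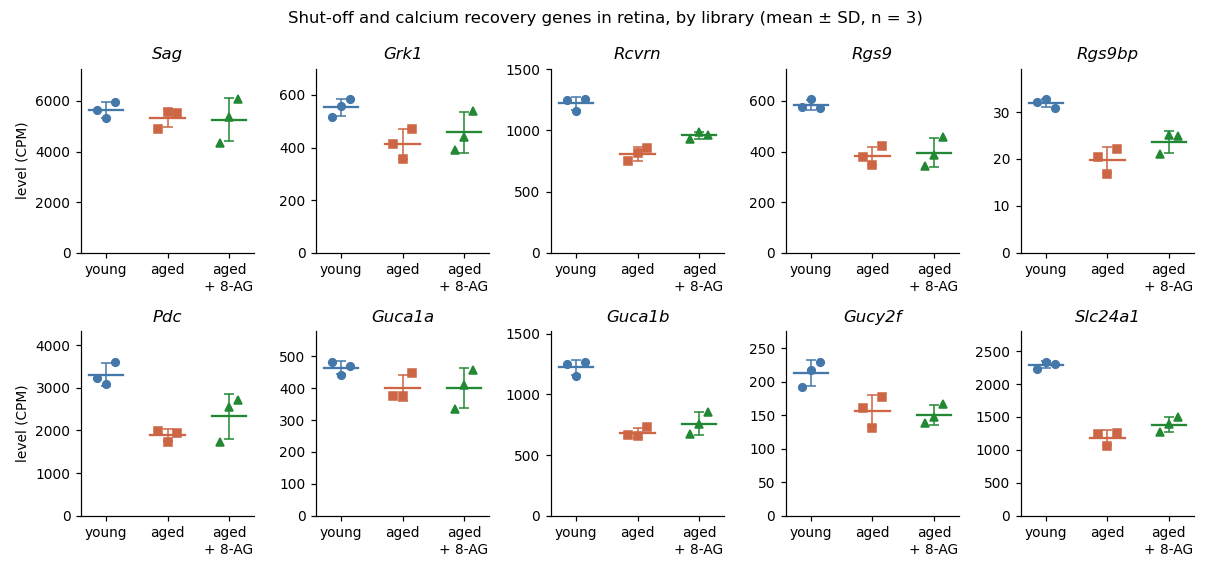
Level of each of the 10 genes in the 9 retina libraries in CPM (linear axes from 0), with 1 point per library, the group mean as a line and the SD as a bar. For 8 genes the aged points lie below all young points, and for Sag and Guca1a they overlap.

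Promoter sequence is shown for the genes at the ends of this range and for the cyclase regulators that differed. RefSeq's promoter table (GRCr8, another build than the Rnor_6.0 of the deposited files) held 8 of the 10 genes, without Grk1 and Rcvrn. The 250 bases before each annotated start were searched on both strands for TAATCC, the core bound by the photoreceptor factor CRX, and for TGCTGAC, a partial site of the rod factor NRL, letters that do not overlap each other. TAATCC was found for 2 of the 8 genes, Guca1a and Gucy2f, and in 6.34% of all 33469 promoters. TGCTGAC was found for 0 of the 8 and in 3.53% of all promoters. The 150 bases before the start are printed 5′ to 3′ along the gene's strand, with TAATCC or its reverse complement GGATTA in capitals. A match describes the letters and is neither a binding site nor a cause, and no match says only that these letters are not in this window.
Slc24a1 promoter, chr8:74361208-74361357, minus strand: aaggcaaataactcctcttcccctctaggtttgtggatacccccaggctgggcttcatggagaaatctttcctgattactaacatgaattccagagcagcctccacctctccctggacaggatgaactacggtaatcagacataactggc
Guca1b promoter, chr9:21105108-21105257, minus strand: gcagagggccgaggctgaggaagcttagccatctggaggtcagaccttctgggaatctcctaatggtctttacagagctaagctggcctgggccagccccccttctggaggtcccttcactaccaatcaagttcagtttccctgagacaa
Guca1a promoter, chr9:21086492-21086641, plus strand: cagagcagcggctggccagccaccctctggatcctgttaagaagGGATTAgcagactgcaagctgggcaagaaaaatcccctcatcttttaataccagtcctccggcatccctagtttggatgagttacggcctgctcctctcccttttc
Gucy2f promoter, chrX:110605018-110605167, minus strand: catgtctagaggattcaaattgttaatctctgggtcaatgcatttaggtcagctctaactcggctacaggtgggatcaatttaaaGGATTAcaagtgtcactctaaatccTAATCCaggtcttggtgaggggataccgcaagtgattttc
Sag promoter, chr9:95917047-95917196, plus strand: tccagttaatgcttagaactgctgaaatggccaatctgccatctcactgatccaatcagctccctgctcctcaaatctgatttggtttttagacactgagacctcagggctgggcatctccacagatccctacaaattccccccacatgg
Gucy2f held the motif at 65 and 40 bases before the start on opposite strands, and Guca1a at 106 bases before it. Gucy2f was called lower with age and Guca1a was not, and Slc24a1 and Guca1b, with the largest decreases, held no match.

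The genes of light activation were read beside them from a list of 8, Gnat1, Gnb1, Gngt1, Pde6a, Pde6b, Pde6g, Cnga1 and Cngb1. Most of the 8 are also rod identity markers, so the lists are not separate measures. Of the 8, 7 were called lower with age, where 7.26% of all genes were, and the median log2 fold change was -0.63. Gnat1 (rod transducin alpha) at -1.18 and Gngt1 (rod transducin gamma) at -0.06 were at the ends. Between them Cngb1 and Cnga1, the subunits of the rod channel, were at -0.75 and -0.67, Gnb1 (transducin beta) at -0.69 and Pde6b and Pde6g (catalytic and inhibitory subunits of PDE6) at -0.60 and -0.47. Each list held a gene near 0. A list of 12 further shut-off and recovery genes, which takes in genes used by many cell types, had a median of 0.01. Beside 1059 lower and 1063 higher of all 14588 genes tested, 2 of the 12 were called lower and 1 higher. The lower genes were Gnb5, the obligate partner of the RGS9 protein, at -0.39 (SE 0.08, adjusted p = 0.0127) and Gucy2d, the other retinal cyclase, at -0.42 (SE 0.08, adjusted p = 0.00902). The higher gene was Calm2, a calmodulin gene, at 0.27 (SE 0.06, adjusted p = 0.0196), and Ppef2, a phosphatase of photoreceptors, had the lowest value at -0.63 with an adjusted p of 0.132.

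Set against the activation genes of the same library, the shut-off genes kept different shares. Each gene's CPM was divided by the summed CPM of the 8 activation genes, which was 29029 to 31465 in young, 17267 to 19070 in aged and 18388 to 23989 in 8-AG treated retina. Per 1000 CPM of that sum, Sag stood at 183, 184 and 190.0 in young retina, at 272, 322 and 289.9 in aged retina and at 237, 240.1 and 253 after 8-AG. Guca1a stood at 15.6, 15.2 and 14.9 in young retina, at 20.9, 21.8 and 23.5 in aged retina and at 18.1, 18.3 and 19.1 after 8-AG. For both genes the 3 groups were separate, with the 8-AG treated libraries between the others. Guca1b also separated the 3 groups with this divisor, but its 8-AG treated libraries, at 36.5, 33.8 and 35.6, were the lowest. With age the share rose without overlap for Sag (1.58-fold), Guca1a (1.44-fold), Grk1 (1.25-fold), Gucy2f (1.23-fold) and Rcvrn (1.11-fold), but 88.6% of all genes tested did the same, since the divisor itself was lower. In the other direction, Guca1b went from 40.7, 39.8 and 40.2 to 36.7, 38.2 and 38.2 without overlap, and Slc24a1 from 72.5, 80.3 and 73.4 to 68.9, 61.5 and 65.8. Both genes were below all young libraries in every aged library, which 0.432% of all genes were. With the activation list in full, including a gene not reported here, Guca1b was still lower without overlap, while Slc24a1 and Gucy2f overlapped. With the mean log2 CPM of the 8 genes as divisor, which gives each gene the same weight, Sag (1.43-fold) and Guca1a (1.30-fold) were higher without overlap, as were 84.3% of all genes, and Guca1b (0.846), Slc24a1 (0.784) and Pdc (0.865) lower, as were 0.85%, while Grk1 (1.13-fold), Gucy2f (1.11-fold) and Rcvrn (1.005-fold) overlapped. Rgs9 and Rgs9bp overlapped between young and aged with each of these divisors, and Pdc with the summed ones. With 3 libraries in each group the exact permutation test (two-sided) could give no p below 0.1, and it gave 0.1 for each of the 7 genes without overlap.

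**Figure D2:**
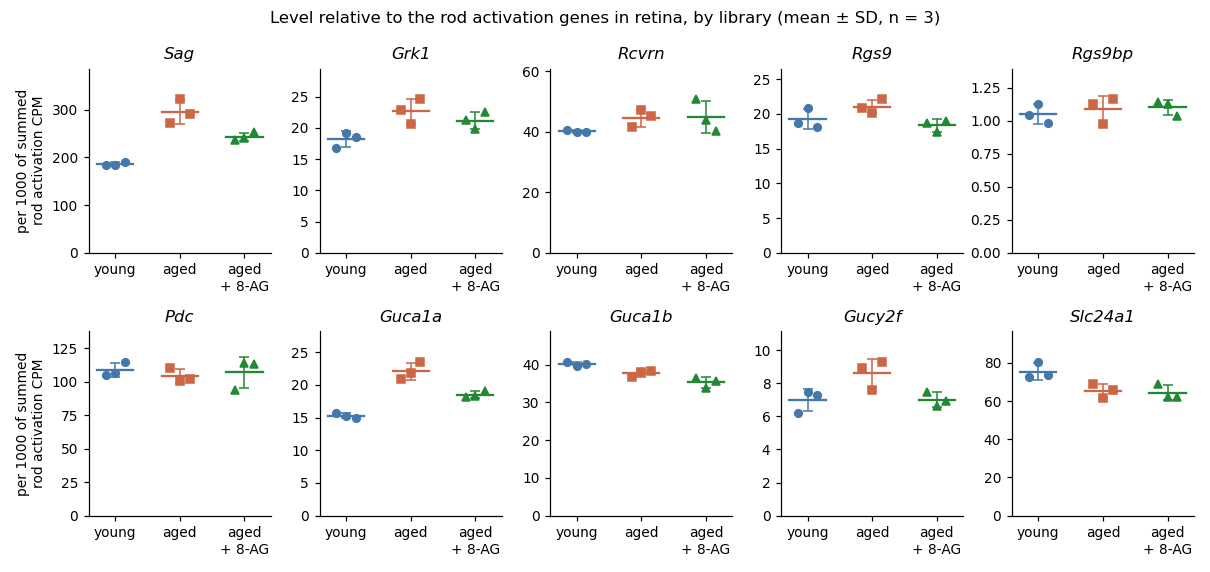
Each gene's CPM per 1000 CPM of the 8 rod activation genes summed in the same retina library (linear axes from 0), with 1 point per library, group mean and SD. Sag, Guca1a and Guca1b separate the 3 groups. The 8-AG treated points lie between the others for Sag and Guca1a and lowest for Guca1b. Rgs9, Rgs9bp and Pdc overlap between young and aged.

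None of the 10 genes passed the test between 8-AG treated and aged retina. By edgeR, 0 of the 10 were called at an adjusted p under 0.05, where 0.0205% of 14631 genes were called. The DESeq2 test also called 0 of the 10, where it called 0.0858% of all genes. At an unadjusted P under 0.05 edgeR gave 2 of the 10, against 3.67% of all genes. The log2 fold changes ran from -0.06 to 0.30 with a median of 0.15, and 7 of the 10 were above 0. Without the lens-rich 8-AG treated library 1 the median was 0.24 with all 10 above 0, 0 of the 10 were called, and Pdc was at 0.48 (SE 0.09, adjusted p = 0.197). Rcvrn was at 0.24 (SE 0.07, 95% interval 0.08 to 0.41, adjusted p = 0.996) and Slc24a1 at 0.22 (SE 0.09, 95% interval 0.01 to 0.43, adjusted p = 0.996). These 2 genes were higher after 8-AG without overlap in 3 of 3 libraries, which 4.81% of all genes were. Pdc had the highest value, 0.30 (SE 0.16, 95% interval -0.08 to 0.68), with 8-AG treated library 1 below all aged libraries. Sag at -0.02 (95% interval -0.29 to 0.25) and Guca1a at 0.00 (95% interval -0.28 to 0.27) were the nearest to 0. The activation genes had a median of 0.17 with 0 of 8 called, and Gnat1, at 0.50 (SE 0.10, adjusted p = 0.353), was the highest of them. The RNA type that the labels state differs between these groups, and its part was not tested.

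Relative to the activation genes, 5 of the 10 were lower after 8-AG than in aged retina without overlap, Sag, Guca1a, Guca1b, Gucy2f and Rgs9, as were 24.0% of all genes, and with the mean log2 CPM of the activation genes as divisor the count was 2, beside 6.76% of all genes. Sag was 0.828 times the aged share and Guca1a 0.841 times (two-sided exact permutation p = 0.1, the smallest possible). Rgs9 went from 20.9, 20.2 and 22.1 per 1000 in aged libraries to 18.7, 17.3 and 19.0 after 8-AG, against 18.6, 20.9 and 18.1 in young libraries. The 8-AG treated libraries all lay below the aged ones and overlapped the young ones. Against young retina, the share after 8-AG was higher without overlap for Sag, Grk1 and Guca1a, as for 71.5% of all genes, and lower for Guca1b and Slc24a1, as for 0.667% of all genes.

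The 8-AG treated retina remained below the young retina for most of these genes. edgeR called 6 of the 10 lower than in young retina, where 14.9% of all genes were called and 7.1% were lower, and 7 of the 10 were lower without overlap, as were 17.7% of all genes. Values called were -0.73 for Slc24a1 (adjusted p = 2.45e-04), -0.69 for Guca1b (adjusted p = 0.00106), -0.56 for Rgs9 (adjusted p = 0.00459), -0.50 for Gucy2f (adjusted p = 0.00486), -0.43 for Rgs9bp (adjusted p = 0.0156) and -0.35 for Rcvrn (adjusted p = 0.0063). Pdc was at -0.51 without overlap but did not pass (SE 0.17, adjusted p = 0.0966), and without 8-AG treated library 1 it was at -0.33 with an adjusted p of 0.0178. Grk1 at -0.27 (adjusted p = 0.134), Guca1a at -0.21 (adjusted p = 0.212) and Sag at -0.10 (adjusted p = 0.592) did not pass either. Without young library 1 or 2 the call of Rgs9bp was lost (-0.42 and -0.41, adjusted p = 0.0585 and 0.0772), and without 8-AG treated library 3 Grk1 (-0.41, adjusted p = 0.0101) and Guca1a (-0.32, adjusted p = 0.0461) passed. Without young libraries 1 and 2 and 8-AG treated library 1, the lens-rich ones, 4 of the 10 were called beside 11.2% of all genes, in a fit of 1 young library whose spread comes from both remaining 8-AG treated libraries, without Rcvrn (-0.37, adjusted p = 0.0848) and Rgs9bp (-0.31, adjusted p = 0.208). The median of the 10 was -0.46 against young retina, beside -0.60 for the aged group, and both comparisons share the young libraries.

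**Figure D3:**
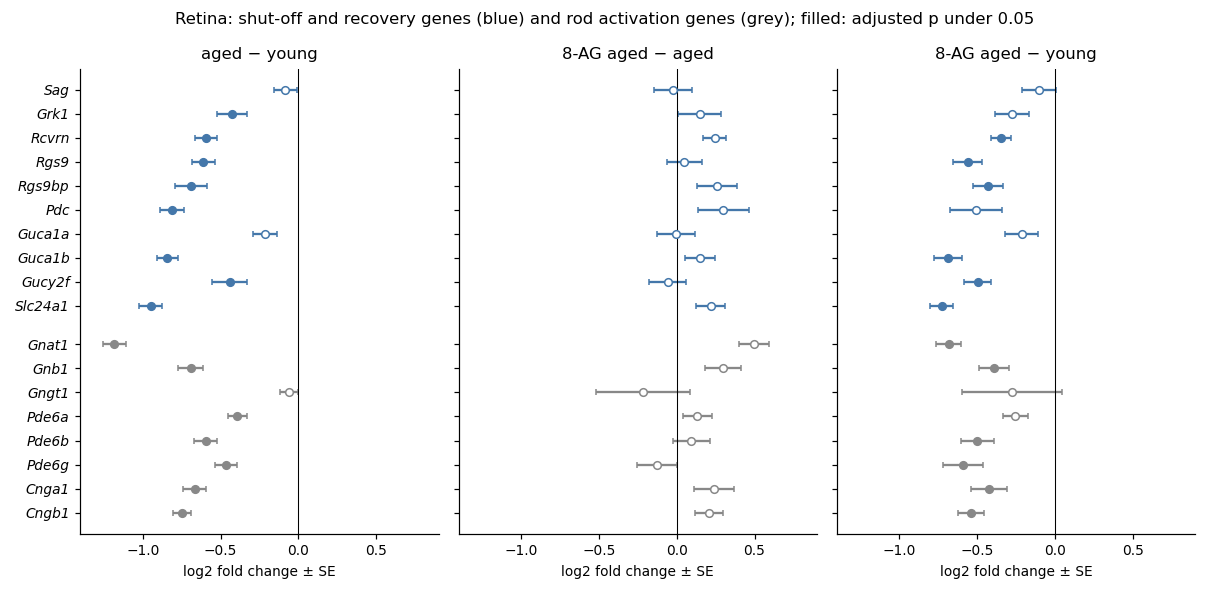
Log2 fold change with its SE for the 10 genes (blue) and the 8 rod activation genes (grey) in 3 retina comparisons, with filled circles for an adjusted p under 0.05. In aged minus young 8 blue points are filled, from -0.95 to -0.42. In 8-AG treated minus aged none is filled, and the blue points lie between -0.06 and 0.30.

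Over the 9 retina libraries, the genes whose profile lay closest to a member were ranked by the root mean square difference of log2 CPM, each profile centred on its own mean, among 8382 other genes with a symbol and a mean log2 CPM of at least 4. Rcvrn lay closest to Cdhr1 (0.04) and Ano2 (0.05), Rgs9 to Rp1l1 (0.03) and Eml3 (0.06), and Pdc to Cnga1 (0.08) and Rp1 (0.09). Gucy2f lay closest to Tex10 (0.05) and Gucy2d (0.06), Rgs9bp to Fam98c and Gnb1 (both 0.07), and Grk1 to Osbp2 and Nfyb (both 0.06). Slc24a1 and Guca1b had Agpat3 among their nearest (0.06 for each), beside Fam57b (0.07) for the first and RGD1597339 (0.06) for the second. Sag lay closest to Emc7 and Rad50 (both 0.05), and Guca1a to Trdmt1 (0.05) and Rtbdn (0.06). Among the 10 themselves, Sag and Guca1a were each other's nearest (0.09), as were Slc24a1 and Guca1b (0.09) and Rgs9 and Gucy2f (0.11). The first pair had the smallest and the second the largest decreases with age, and the third lay between them. These profiles take in the young and aged libraries, so nearness partly restates the age changes.

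In RPE/choroid the same genes were present at levels that varied widely between libraries of the same group. Their summed level was 4063, 3954 and 366 CPM in the young libraries, 2533, 129 and 3348 CPM in the aged libraries and 10479, 217 and 209 CPM in the 8-AG treated libraries. Each group held at least 1 library high and at least 1 low, and all 10 genes overlapped between groups in all 3 comparisons. The rod activation genes moved with them, at 5265, 6075 and 645 CPM in young, 3029, 285 and 5208 CPM in aged and 17219, 331 and 332 CPM in 8-AG treated libraries. The same libraries were high for both lists. Between the lowest and the highest of the 9 libraries the 10 genes differed from 59.2-fold (Rgs9) to 192-fold (Gucy2f), whereas in retina they differed from 1.39-fold (Sag) to 2.19-fold (Slc24a1). The lowest Gucy2f level rested on 3 counts, in 8-AG treated library 2. The 8-AG treated library 1, the highest for rod genes, also had the lowest RPE marker sum, 6483 CPM, against 14659 to 31251 CPM in the other 8.

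No member was called in RPE/choroid by edgeR in aged against young, 8-AG treated against aged or 8-AG treated against young, where 0.0% of all genes were called in each, and 0 of the 10 had an unadjusted P under 0.05, against 2.13%, 1.69% and 2.1% of all genes. DESeq2 also called 0 of the 10 in each, where it called 0.129%, 0.355% and 0.431% of all genes. The median log2 fold changes of the 10 were -0.39, 0.91 and 0.37 in that order, with SEs of single genes from 1.11 to 1.98, so a change of 2-fold was not detectable at this spread. Without 8-AG treated library 1 the median went from 0.91 to -3.32 against aged and from 0.37 to -3.82 against young. Without aged library 2 the aged against young median went from -0.39 to 0.15. With the mean log2 CPM of rod identity markers as a covariate, the medians were 0.03, 0.01 and -0.03. Tested directly, the difference between tissues in the age effect was called for 0 of the 10 genes (0.161% of all genes called; range -0.45 to 0.46, SEs from 1.19 to 1.497), as was the difference in the 8-AG effect (0.0% of all genes called; range -0.01 to 1.61), and 0 of the 10 had an unadjusted P under 0.05 in either. Single RPE/choroid libraries moved these differences: without aged library 2 the median for age was 0.80 with all 10 above 0, and without 8-AG treated library 1 the median for 8-AG was -3.35.

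Per 1000 CPM of the rod activation genes, the members spanned less between RPE/choroid libraries than their levels did. From the lowest to the highest of the 9 libraries the share spanned 1.51-fold (Rcvrn) to 2.15-fold (Slc24a1) for 6 genes, 3.39-fold for Grk1, 3.69-fold for Rgs9bp, 6.69-fold for Gucy2f and 45.1-fold for Rgs9. The lowest Gucy2f share rested on 3 counts, in 8-AG treated library 2. Rcvrn ranged from 41.6 to 62.7, Guca1a from 32.2 to 60.4, Pdc from 70.3 to 143, Sag from 210.3 to 399 and Guca1b from 44.1 to 86.2. Slc24a1 ranged from 31.2 to 67.2, Grk1 from 8.78 to 29.8, Rgs9bp from 1.03 to 3.81 and Gucy2f from 0.252 to 1.68. These shares are not compared with those in retina, since the tissues were prepared and counted differently. Between groups, 0 of the 10 shares stood apart between aged and young libraries (0.0312% of all genes were lower in aged) or between 8-AG treated and aged libraries (0.437% of all genes were higher after 8-AG). That of Guca1a was lower in 8-AG treated than in young libraries without overlap (0.0185% of all genes), at 0.828 times the young share with a two-sided exact permutation p of 0.1, and the other genes overlapped. This separation of Guca1a was lost with the activation list in full, where Rcvrn was higher without overlap instead, and with the rod identity markers as divisor, where 0 of the 10 stood apart.

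Rgs9 stood apart in 1 library. It was at 20.9, 12.6 and 2.24 CPM in young, at 15.1, 0.942 and 12.2 CPM in aged and at 55.8, 1.72 and 31.0 CPM in 8-AG treated RPE/choroid libraries. In 8-AG treated library 3 the rod genes were low while Rgs9 was high, so its share was 93.5 per 1000, against 2.07 to 5.1996 in the other 8 libraries. Rgs9bp, its anchor, was at 1.05 CPM there, beside 0.944 CPM in 8-AG treated library 2. That library also differed in genes chosen after their values were seen: Krt12, the keratin of the corneal epithelium, was at 125 CPM against 0.0645 to 1.89 CPM in the other 8, and Optc, opticin, at 131 CPM against 1.11 to 12.7 CPM. Pax6, looked up with them, was at 227 CPM there, but also at 163 CPM in aged library 3 and 169 CPM in 8-AG treated library 1. Mueller glia markers summed to 3759 CPM there and 1765 CPM in 8-AG treated library 2, and bipolar markers to 291 and 102 CPM. The protocol states that cornea, iris and lens were removed. The part of these in the Rgs9 level was not tested. The Rgs9 log2 fold change of 8-AG treated against aged was 1.69 (SE 1.39, adjusted p = 1.0) and 1.61 without that library.

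**Figure D4:**
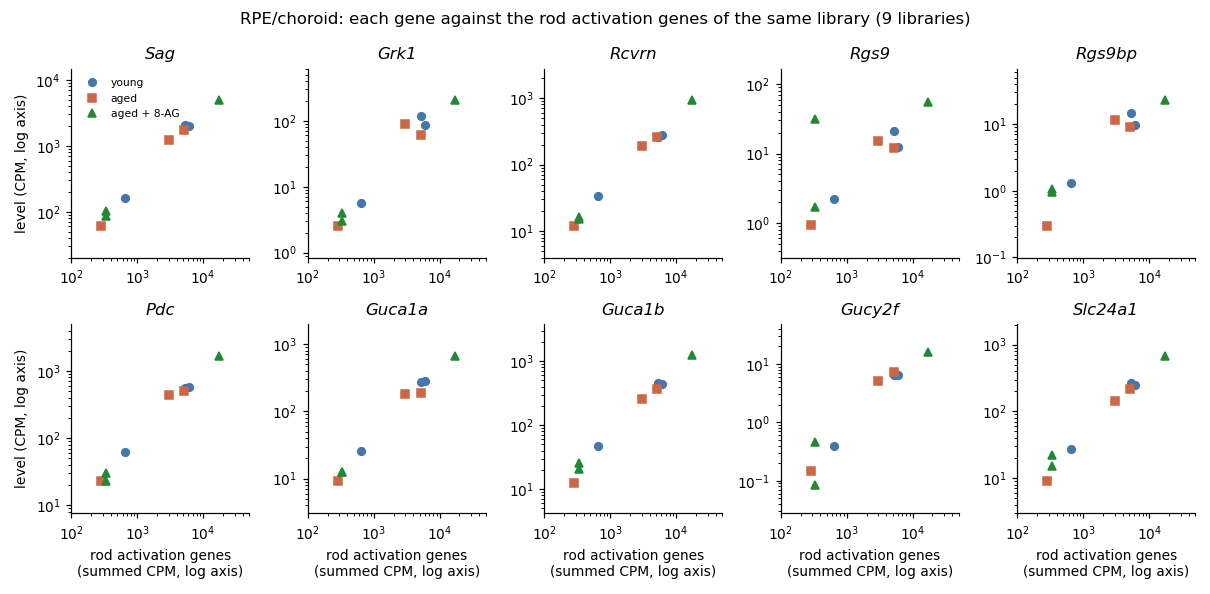
Level of each gene (CPM, log axis) against the summed CPM of the 8 rod activation genes (log axis) in the 9 RPE/choroid libraries, with the groups by colour and shape. Points rise together along the rod axis for each gene, and for Rgs9 1 of the 8-AG treated libraries, at 31.0 CPM, lies far above the others of low rod content.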

How the data were processed

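The authors deposited RSEM expected counts per gene for 9 retina libraries, not normalized and 11.51% not whole, which were rounded here. They deposited raw read counts per gene for 9 RPE/choroid libraries. Their processing notes name Bowtie2 2.1.0, RSEM 1.2.15, edgeR and the build Rnor_6.0, with no role or tissue. A deposited retina table of TMM-normalized signal paired symbols with identifiers. Deposited tables of their own comparisons (fold changes and p-values) were used only for symbols.

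Under R 4.3.3, edgeR 4.0.16 (filterByExpr, TMM, estimateDisp, then robust glmQLFit and glmQLFTest) fitted each comparison over all genes of its 6 libraries, with Benjamini-Hochberg adjustment. The SE is the log2 fold change over the square root of F, and intervals are 95%. DESeq2 1.42.0 was an alternative, and SciPy 1.17.1 ran exact permutations. The 10 members are named in each comparison, and of the activation and further shut-off genes up to 6 of those called with the lowest P and those at the ends. The steps were tested on simulated data. One gene of the activation and rod identity lists is not reported here, so both lists, the divisor and the rod covariate were used without it, a departure from the written design. The 10 members and all lists were chosen with earlier results of these data known. Counts cover the depths given and counting error only. Reads and protein data were not analysed here.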

Additional observations from a re-analysis of the deposited data

How the results depend on the processing

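The number of the 10 genes called stayed within 1.5 times its value under these alternatives, in the comparisons each was run for: RLE size factors, library totals alone, no filter, a minimum of 10 counts per library, DESeq2, a non-robust fit, all 3 groups in one fit, unrounded counts, summed label numbers, a rod covariate and each library left out. Unrounded counts were run in retina only, summed label numbers and the rod covariate in RPE/choroid only, and for the tissue differences only size factors, library totals, both filters, the block and each library left out. With the lens-rich retina libraries left out (young 1 and 2, 8-AG treated 1), an alternative chosen after seeing the data, it was 5 of 8 in aged against young, 4 of 6 in 8-AG treated against young and 0 in 8-AG treated against aged, where Sag (0.099), Guca1a (0.114) and Gucy2f (0.0032) turned above 0, and the genes called in all fell from 2122 to 669 in aged against young. Otherwise it ranged from 6 to 9 in aged against young retina and from 5 to 8 in 8-AG treated against young retina, and was 0 elsewhere. With library totals alone, where the median of all genes in aged against young retina shifted by 0.12, 6 were called beside 19.8% of all genes. With TMM it was 8 beside 14.5%. Grk1 (-0.31, adjusted p = 0.0506) and Gucy2f (-0.33, adjusted p = 0.0765) no longer passed with library totals, and Sag was at 0.031. With a replicate block the counts were 8, 0 and 7 in the 3 retina comparisons and 0 in RPE/choroid and in both tissue differences, and the all-gene calls in retina were 1698, 0 and 1932. Pdc then passed in 8-AG treated against young (adjusted p = 0.0328). Same-numbered libraries did not deviate together in every pair (correlations from -0.33 to 0.26 in retina, -0.61 to 0.70 in RPE/choroid). With 3 libraries a group, whose deviations from the group mean depend on each other, this check cannot decide whether the numbers pair the libraries.

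Some single-gene directions turned. For 8-AG treated against aged retina, leaving out each library gave -0.13 to 0.10 for Sag, -0.063 to 0.14 for Rgs9, -0.11 to 0.11 for Guca1a and -0.17 to 0.037 for Gucy2f, and all 3 groups in one fit gave 0.000466 for Guca1a. Against young retina Sag ran from -0.21 to 0.019. In RPE/choroid the aged against young value of Rgs9 ran from -0.89 to 0.34, and was 0.084 with summed label numbers and 0.077 with the rod covariate. Of 528 single-gene values under alternatives, for the 10 genes in retina and for Rgs9 in RPE/choroid, 488 kept their direction and their side of the threshold. The other 9 genes in RPE/choroid are not in that count, and without 8-AG treated library 1 the median of the 10 turned to -3.32 against aged and to -3.82 against young. The cause of these changes was not tested.

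The number of genes whose share of the rod activation sum did not overlap was 7 in aged against young retina (7 to 8 without each library), 5 in 8-AG treated against aged retina (5 to 6) and 5 in 8-AG treated against young retina (5 to 6). For 8-AG treated against aged it was 2 with the mean of log2 CPM and 3 with the rod identity markers as divisor. In RPE/choroid it was 0 in aged against young (0 to 2 without each library), 0 in 8-AG treated against aged (0 to 1) and 1 in 8-AG treated against young (1 to 4). With the mean of log2 CPM as divisor the first was 1 and the last 2, and with the rod identity markers the last was 0. With the activation list in full, including the gene not reported here, the retina counts were 5, 4 and 6 and the RPE/choroid counts 1 (Guca1b, lower), 1 (Guca1b, higher) and 1 (Rcvrn, higher, in place of Guca1a). With 3 libraries a group, effects in RPE/choroid below the spread between libraries were not detectable.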
